A study of Mus musculus with 11 samples.

Results

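The cell cycle and DNA replication genes are 53 listed genes, 53 of the 25006 genes in the count files, chosen by symbol and matched to their Ensembl identifiers. They comprise 15 genes of DNA replication, 4 genes of the passage from G1 into S phase and 34 genes of mitosis. RNA was sequenced from the left ventricle of 11 mice, 1 library per mouse. Naive control mice (libraries M44 and M45, n = 2) and control mice with myocardial infarction (MI; M006, M38 and M40, n = 3) carried the genotype label Vegfc fl/fl. Naive Vegfc-deficient mice (M149, M150 and M34, n = 3) and MI Vegfc-deficient mice (M35, M900 and M913, n = 3) carried the label Vegfc fl/fl ; LysMCre, in which Cre made from the Lyz2 locus removes Vegfc in myeloid cells such as macrophages and neutrophils. MI was made by permanently tying the left descending coronary artery, infarcted tissue was taken 9 days later, and naive hearts gave a matching piece of ventricle. The study's methods give 9 days, whereas its results text gives 1 week after MI. The sources differ on the controls, which the genotype field gives as floxed without Cre, the collection protocol and methods as LysMCre mice, and the study's legend as wild-type or floxed mice. Age was not given in the sources used here. Values for each group are listed below in the order of the libraries named here.

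A dividing cell first licenses its replication origins in G1 by loading the MCM helicase, then copies its DNA in S phase, and in mitosis condenses, attaches and separates the copies before the cell divides. Cyclins and their kinases drive these steps, E2F factors switch on the replication genes, and FOXM1 and the MuvB complexes switch on the mitotic genes. Adult cardiomyocytes have largely left the cell cycle and rarely divide, whereas fibroblasts, endothelial cells and macrophages multiply in the days after an infarct. Counts from whole ventricle join all of these cells, so more cells of a type and more RNA per cell cannot be told apart. CPM below are counts scaled to the size of the library by edgeR's trimmed mean of M values (TMM). An edgeR adjusted p is the Benjamini-Hochberg adjusted p of edgeR's quasi-likelihood test over the 14779 genes that passed the filter on low counts, all 53 members among them, and a gene is said to have risen or fallen only where it was under 0.05.

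Total counts ran from 10824989 to 26782728, and 3 counts, the floor used here, stood for 0.101 to 0.363 CPM, counting error only. Ventricle was recognisable in the naive libraries, where 10 cardiomyocyte markers summed to 75666 to 107350 CPM. After MI the sum was 2682 to 27226 CPM. Fibroblast markers then summed to 29965 to 47562 CPM, against 4828 to 6730 CPM in naive libraries. Macrophage markers summed to 1962 to 4777 CPM, against 1418 to 2190 CPM. Not every marker followed its sum: the fibroblast gene Dcn and the macrophage gene Mrc1, among others, overlapped between naive and MI libraries. Whole-tissue Vegfc was at 21.9 to 45.5 CPM and did not separate the genotypes. Lyz2 was higher in M149, a naive heart labelled Vegfc-deficient (4565 CPM), than in either naive control (2120.5 and 2282 CPM), while M150 and M34 had 72.5 and 245 CPM. MI controls had 4538 to 5380 CPM, and after MI the Vegfc-deficient hearts had 1392, 203 and 12.4 CPM of it. Chil3, made by alveolar and other macrophages, was also highest in M149, at 1679 CPM. It was at 26.02 to 601 CPM in the other naive hearts and 1.51 to 16.9 CPM after MI. The lung epithelial genes Sftpc, Sftpb and Sftpa1 were at 0 in every naive library. Scgb1a1, a further lung epithelial gene, was highest in M149 (2.16 CPM, against 0 to 1.34 CPM in the other naive hearts). After MI it was at most 0.0538 CPM. Among naive hearts the lung marker Marco was highest in M149 too, although M35 exceeded it after MI. Carry-over of lung tissue was not tested. Xist was at 188 to 403 CPM in every MI library and at 0.624 to 11.8 CPM in every naive library, and 4 Y-linked genes showed the reverse (152 to 195 CPM when naive, at most 1.85 CPM after MI), so the sex of the mice and MI cannot be told apart in any MI comparison below.

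Promoter sequence was examined because factors that bind CCAAT, E2F sites and the cell cycle homology region (CHR) are known to act at such genes. RefSeq windows of GRCm38.p6 reaching 250 bases upstream of the start were found for 45 members, and the letters were searched on both strands. CCAAT was held by 71.1% of the 45 windows (71.4% of 14 replication and 75.9% of 29 mitosis windows) against 34.5% of all 27025 windows of that length. The CHR letters TTTGAA were held by 34.5% of mitosis windows, 14.3% of replication windows and 16.3% of all windows. An E2F site, searched as TTT, then CC, GG, CG or GC, then CGC, was held by 28.6% of replication windows, 3.45% of mitosis windows and 1.91% of all windows. Both CCAAT and CHR letters were held by 31% of mitosis windows and 5.73% of all windows. The 150 bases directly upstream of the start of 4 mitosis genes with CCAAT or CHR letters and 2 replication genes with E2F letters are printed 5' to 3' on the gene's strand, with matches on either strand in capitals. They lie at chr11:99024190-99024339 (minus strand) for Top2a, chr19:37376232-37376381 (plus strand) for Kif11, chr7:135716380-135716529 (minus strand) for Mki67, chr9:70421555-70421704 (minus strand) for Ccnb2, chr1:128359706-128359855 (minus strand) for Mcm6 and chr11:98908001-98908150 (plus strand) for Cdc6.
Top2a: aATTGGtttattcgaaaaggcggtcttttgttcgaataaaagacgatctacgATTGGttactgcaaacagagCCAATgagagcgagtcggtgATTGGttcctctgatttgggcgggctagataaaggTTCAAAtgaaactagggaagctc
Kif11: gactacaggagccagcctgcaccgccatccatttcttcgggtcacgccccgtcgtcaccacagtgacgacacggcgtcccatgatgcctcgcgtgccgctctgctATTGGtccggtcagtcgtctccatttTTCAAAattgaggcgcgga
Mki67: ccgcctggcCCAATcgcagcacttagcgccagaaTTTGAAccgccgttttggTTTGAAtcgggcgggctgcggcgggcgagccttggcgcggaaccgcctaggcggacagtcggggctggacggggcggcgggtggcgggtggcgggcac
Ccnb2: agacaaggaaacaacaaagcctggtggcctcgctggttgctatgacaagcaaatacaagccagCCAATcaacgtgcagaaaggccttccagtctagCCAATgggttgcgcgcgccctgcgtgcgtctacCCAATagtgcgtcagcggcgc
Mcm6: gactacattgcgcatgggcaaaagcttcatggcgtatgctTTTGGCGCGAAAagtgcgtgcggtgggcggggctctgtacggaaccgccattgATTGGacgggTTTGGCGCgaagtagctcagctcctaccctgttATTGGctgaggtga
Cdc6: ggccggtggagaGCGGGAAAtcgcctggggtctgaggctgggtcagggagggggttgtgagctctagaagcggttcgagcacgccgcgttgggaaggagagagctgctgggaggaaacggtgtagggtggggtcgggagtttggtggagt
In Kif11, a plus-end spindle motor, CCAAT letters start 45 and CHR letters 19 bases upstream of the start. In Mcm6, a helicase subunit, overlapping E2F letters start 110 and 106 bases upstream and a further match 47 bases upstream. These are letter matches and not shown binding sites, and the distances hold for the RefSeq start used. For Kif11, Mki67, Ccnb2 and Mcm6 the bases just after that start were not found unbroken in a GENCODE transcript of the gene. The Cdc6 stretch lies inside the gene as GENCODE places it (chr11:98907801-98923940).

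Nearly every member was higher 9 days after MI, in both genotypes. In control hearts 49 of 53 members rose, 1 fell (Cenpa) and 3 did not pass the test (Pcna, Ccnd1 and Cenpf), against 26.3% of all genes tested that rose and 24.1% that fell. Vegfc-deficient hearts gave 49 members that rose, 1 that fell (Cenpa) and 3 that did not pass (Pcna, Ccnd1 and Ccne1), against 30% and 27.7% of all genes. The median log2 fold change of the members was 2.26 in control hearts and 2.00 in Vegfc-deficient hearts, beside 0.13 and 0.097 over all genes tested. Both comparisons came from 1 fit and share no library. Separate groups were common: in controls all MI libraries lay above both naive ones for 49 members and below for 2. Over the 14779 genes tested, 5779 lay above and 4871 below. In Vegfc-deficient hearts 49 members lay above and 1 below, against 4966 and 4536 of all genes. Summed over the members, CPM stood at 471 to 503 in the 5 naive libraries and at 776 to 1515 in the 6 MI libraries. Scaling by totals without the 200 most abundant genes moved the median over all genes to 0.37 in controls and 0.38 in Vegfc-deficient hearts (5434 rose and 2731 fell in controls, against 3882 and 3568 under TMM), with 49 and 51 members up and 1 down. Fewer members rose, 42, when naive control M45 was left out, and the median was then 1.98.

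**Figure D1:**
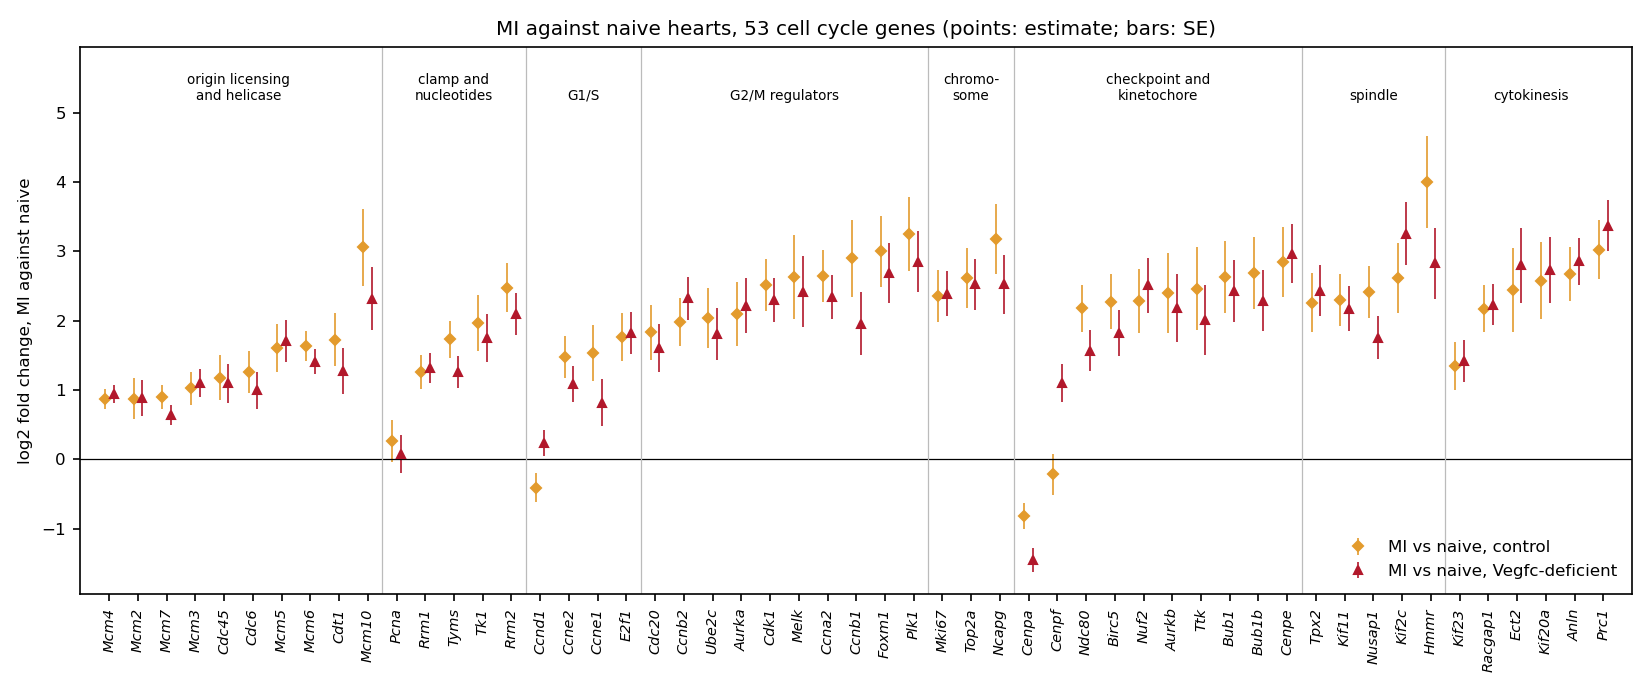
Log2 fold change of MI against naive hearts (vertical axis) for the 53 members ordered by role (horizontal axis), as the edgeR estimate (point) with its standard error (bar), in control (diamonds) and Vegfc-deficient mice (triangles). Members lie above 0 in both genotypes except Cenpa in both, and Ccnd1 and Cenpf in control hearts, and mitosis genes have a median of 2.45 in controls against 1.26 for replication genes.

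The members that load and fire the replicative helicase, Cdc6, Cdt1, Mcm2 to Mcm7, Mcm10 and Cdc45, all rose in both genotypes, with log2 fold changes of 0.86 to 3.06 in control hearts and 0.64 to 2.32 in Vegfc-deficient hearts. Mcm2 and Mcm5, subunits of the MCM ring, showed how the hearts were spread. Mcm2 (ENSMUSG00000002870) was at 13.2 and 14.2 CPM in naive control hearts, 12.2, 13.1 and 10.5 CPM in naive Vegfc-deficient hearts, 16.8, 31.0 and 27.5 CPM in MI control hearts and 14.8, 25.4 and 25.8 CPM in MI Vegfc-deficient hearts. Its MI libraries lay above all naive libraries, with M006 and M35 lowest. Mcm2 rose 1.84-fold in control hearts (log2 fold change 0.88, SE 0.30, edgeR adjusted p = 0.0308) and 1.85-fold in Vegfc-deficient hearts (log2 fold change 0.89, SE 0.26, edgeR adjusted p = 0.0148). The call was lost for controls without M44 (0.82, adjusted p = 0.146 by edgeR), M45, M38 or M40, and for Vegfc-deficient hearts without M34, M900 or M913 (0.72, adjusted p = 0.0678 by edgeR).

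Mcm5 was at 10.3 and 9.88 CPM in the naive control libraries and 8.73, 8.59 and 8.63 CPM in the naive Vegfc-deficient ones, against 19.7, 38.2 and 34 CPM after MI in controls and 16.8, 33.8 and 34.3 CPM after MI in Vegfc-deficient mice. It kept to a narrow range in naive hearts, and the MI libraries did not overlap them. Mcm5 rose 3.03-fold in control hearts (log2 fold change 1.60, SE 0.34, edgeR adjusted p = 0.00381) and 3.28-fold in Vegfc-deficient hearts (log2 fold change 1.71, SE 0.30, edgeR adjusted p = 0.000925). Mcm4, another ring subunit, had the smallest change of this role in controls and a small spread. It was at 17.1 and 20 CPM in naive control hearts, 18, 16.7 and 16.1 CPM in naive Vegfc-deficient hearts, 30, 37.0 and 34.4 CPM in MI control hearts and 30.4, 35.8 and 31.7 CPM in MI Vegfc-deficient hearts, again without overlap. Mcm4 rose 1.82-fold in control hearts (log2 fold change 0.86, SE 0.14, edgeR adjusted p = 0.00108) and 1.93-fold in Vegfc-deficient hearts (log2 fold change 0.94, SE 0.13, edgeR adjusted p = 0.000205). Mcm10, which helps to activate the loaded helicase, had the largest change of the role. It was at 0.892 and 0.544 CPM in the naive control libraries and 1.47, 1.33 and 0.814 CPM in the naive Vegfc-deficient ones, against 4.04, 6.42 and 7.59 CPM after MI in controls and 2.82, 7.46 and 7.58 CPM after MI in Vegfc-deficient mice. Mcm10 stood lowest of the members per length in naive control hearts, at 0.0933 ± 0.032 CPM per kilobase of exon (SD, n = 2). Mcm10 rose 8.32-fold in control hearts (log2 fold change 3.06, SE 0.56, edgeR adjusted p = 0.00168) and 4.99-fold in Vegfc-deficient hearts (log2 fold change 2.32, SE 0.45, edgeR adjusted p = 0.00166).

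Genes that supply the clamp and the building blocks of DNA did not all move alike. Rrm1 and Rrm2, the subunits of ribonucleotide reductase, and Tyms and Tk1, which make thymidine nucleotides, rose in both genotypes, but Pcna, the sliding clamp of the polymerases, did not pass the test. Rrm2 had the largest change and was at 4.64 and 3.99 CPM in naive control hearts, 4.02, 5.69 and 4.23 CPM in naive Vegfc-deficient hearts, 17.6, 26.9 and 27.4 CPM in MI control hearts and 11.9, 24.6 and 22.8 CPM in MI Vegfc-deficient hearts. All MI libraries lay above all naive ones, and Rrm2 rose 5.55-fold in control hearts (log2 fold change 2.47, SE 0.35, edgeR adjusted p = 0.000517) and 4.29-fold in Vegfc-deficient hearts (log2 fold change 2.10, SE 0.30, edgeR adjusted p = 0.000272). Pcna (ENSMUSG00000027342, chr2:132249162-132253314 on the minus strand) was at 41.7 and 52.4 CPM in naive control hearts, 56.6, 48.3 and 39.5 CPM in naive Vegfc-deficient hearts, 46.2, 66.5 and 56.4 CPM in MI control hearts and 29.4, 62.5 and 60.3 CPM in MI Vegfc-deficient hearts. The groups overlapped, with M35 the lowest of all 11 libraries. Its log2 fold change was 0.26 in controls (SE 0.30, edgeR adjusted p = 0.490) and 0.078 in Vegfc-deficient hearts (SE 0.27, edgeR adjusted p = 0.817). Pcna was also the highest member per length in every group, at 19.6 ± 3.13 (n = 2) and 20.1 ± 3.55 CPM per kilobase (n = 3) in naive control and Vegfc-deficient hearts and 23.5 ± 4.23 and 21.1 ± 7.70 CPM per kilobase after MI (SD, n = 3 each). Mcm6 followed after MI, at 15.2 ± 2.13 and 15.2 ± 2.76 CPM per kilobase in the 2 genotypes. Tyms, thymidylate synthase, was at 12.3 and 14.4 CPM in the naive control libraries and 11.3, 13.6 and 17.3 CPM in the naive Vegfc-deficient ones, against 41.5, 43.9 and 48.1 CPM after MI in controls and 22.4, 40.5 and 37.9 CPM after MI in Vegfc-deficient mice. It rose 3.33-fold in control hearts (log2 fold change 1.74, SE 0.27, edgeR adjusted p = 0.000721) and 2.39-fold in Vegfc-deficient hearts (log2 fold change 1.26, SE 0.23, edgeR adjusted p = 0.00107). Pseudogenes named after Pcna, Tyms, Ccnb1 and Ccnb2 are annotated, so reads of these 4 genes may be shared with such copies.

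Of the 4 genes of the G1 to S passage, Ccne2 and E2f1 rose in both genotypes, Ccne1 rose in controls, and Ccnd1 did not pass the test in either. E2f1, a transcription factor of the replication genes, was at 5.89 and 4.80 CPM in naive control hearts, 5.0, 4.12 and 3.99 CPM in naive Vegfc-deficient hearts, 12.2, 20.1 and 22.2 CPM in MI control hearts and 10.5, 14.6 and 21 CPM in MI Vegfc-deficient hearts. Every MI library exceeded every naive library, and E2f1 rose 3.40-fold in control hearts (log2 fold change 1.76, SE 0.34, edgeR adjusted p = 0.00221) and 3.52-fold in Vegfc-deficient hearts (log2 fold change 1.82, SE 0.30, edgeR adjusted p = 0.000632). Ccne1, cyclin E1, was at 2.59 and 2.72 CPM in naive control hearts, 4.80, 3.87 and 3.01 CPM in naive Vegfc-deficient hearts, 4.90, 9.06 and 9.06 CPM in MI control hearts and 4.11, 7.76 and 8.66 CPM in MI Vegfc-deficient hearts. In the Vegfc-deficient groups MI library M35 lay below naive M149. The gene rose 2.90-fold in controls (log2 fold change 1.53, SE 0.41, edgeR adjusted p = 0.0103), and had a log2 fold change of 0.82 in Vegfc-deficient hearts (SE 0.34, edgeR adjusted p = 0.0626). Without M44 or M45 the control call was lost (edgeR adjusted p = 0.0679 and 0.0618), and without M35 or M006 the Vegfc-deficient comparison passed (log2 fold change 1.08, edgeR adjusted p = 0.0148 without M35). With all libraries it also passed by limma voom (1.12, adjusted p = 0.0118) and under scaling without the 200 most abundant genes (1.09, edgeR adjusted p = 0.0170). The difference between the genotypes' responses was -0.71 (SE 0.52, edgeR adjusted p = 0.711).

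Ccnd1, cyclin D1, which links growth signals to the cycle, has exons overlapping those of LTO1 on the opposite strand by up to 818 bases. The gene stood apart from the other cyclins. It was at 49.3 and 43.3 CPM in naive control hearts, 24.8, 39.8 and 36.2 CPM in naive Vegfc-deficient hearts, 31.7, 43.0 and 30 CPM in MI control hearts and 39.8, 39.5 and 39.2 CPM in MI Vegfc-deficient hearts. Both naive controls lay above the 3 MI controls, M38 only just, while the Vegfc-deficient groups overlapped. Its log2 fold change was -0.41 in controls (SE 0.21, edgeR adjusted p = 0.122) and 0.23 in Vegfc-deficient hearts (SE 0.19, edgeR adjusted p = 0.302). The control difference passed as a fall by limma voom (-0.45, adjusted p = 0.0394) and, by edgeR, without M38 (-0.65, edgeR adjusted p = 0.0205), and scaling by totals without the 200 most abundant genes made the Vegfc-deficient difference pass as a rise (0.52, edgeR adjusted p = 0.0208).

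**Figure D2:**
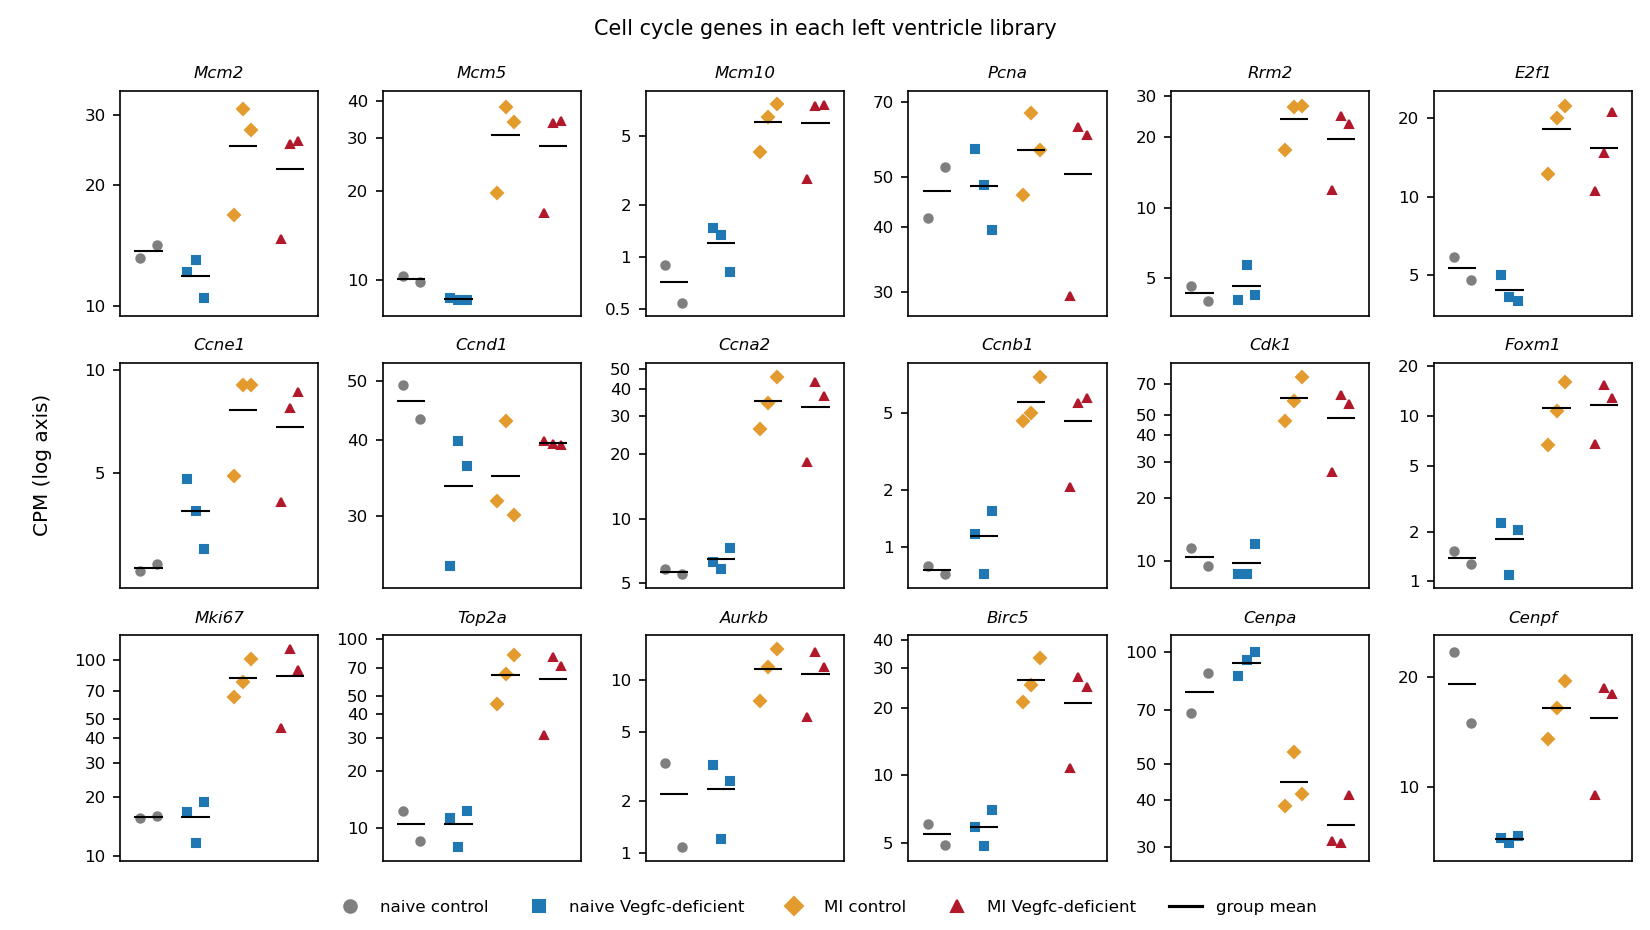
CPM on a log axis (vertical) of 18 members in each library, by group (horizontal: naive control, naive Vegfc-deficient, MI control, MI Vegfc-deficient), each point 1 mouse and each line the group mean. MI libraries lie above naive libraries for most genes shown. Pcna overlaps in both genotypes, Cenpf in controls, and Ccnd1 and Ccne1 in Vegfc-deficient mice. Cenpa runs the other way in both genotypes and Ccnd1 in controls. M35, the first point of the MI Vegfc-deficient group, is often the lowest MI library.

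All 10 regulators of mitotic entry and exit rose in both genotypes, with log2 fold changes of 1.83 to 3.25 in controls and 1.61 to 2.85 in Vegfc-deficient hearts. Cdk1, the kinase that starts mitosis, was at 11.6 and 9.51 CPM in naive control hearts, 8.73, 8.71 and 12.1 CPM in naive Vegfc-deficient hearts, 47.0, 58.6 and 75.8 CPM in MI control hearts and 26.7, 62.6 and 56.4 CPM in MI Vegfc-deficient hearts. Cdk1 rose 5.73-fold in control hearts (log2 fold change 2.52, SE 0.37, edgeR adjusted p = 0.000591) and 4.91-fold in Vegfc-deficient hearts (log2 fold change 2.29, SE 0.32, edgeR adjusted p = 0.000228). Ccna2, its S and G2 phase cyclin, was at 5.80 and 5.53 CPM in the naive control libraries and 6.28, 5.81 and 7.32 CPM in the naive Vegfc-deficient ones, against 26.2, 34.5 and 45.6 CPM after MI in controls and 18.3, 43.5 and 37.3 CPM after MI in Vegfc-deficient mice. Neither gene's MI libraries overlapped the naive ones, and in both M40 was highest and M35 lowest after MI. Ccna2 rose 6.25-fold in control hearts (log2 fold change 2.64, SE 0.38, edgeR adjusted p = 0.000517) and 5.09-fold in Vegfc-deficient hearts (log2 fold change 2.35, SE 0.32, edgeR adjusted p = 0.000209). Ccnb1, a mitotic cyclin, was low in naive hearts, at 0.803 and 0.725 CPM in naive control hearts, 1.18, 0.726 and 1.55 CPM in naive Vegfc-deficient hearts, 4.52, 4.97 and 7.70 CPM in MI control hearts and 2.06, 5.62 and 5.96 CPM in MI Vegfc-deficient hearts. Ccnb1 rose 7.45-fold in control hearts (log2 fold change 2.90, SE 0.56, edgeR adjusted p = 0.00214) and 3.88-fold in Vegfc-deficient hearts (log2 fold change 1.96, SE 0.45, edgeR adjusted p = 0.00427). The cyclin Ccnb2 and the kinases Aurka and Melk rose as well, by 1.98 to 2.63 in controls and 2.22 to 2.42 in Vegfc-deficient hearts on the log2 scale.

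Foxm1, the transcription factor of mitotic genes, was at 1.52 and 1.27 CPM in the naive control libraries and 2.26, 1.09 and 2.03 CPM in the naive Vegfc-deficient ones, against 6.73, 10.7 and 16.1 CPM after MI in controls and 6.82, 15.5 and 12.9 CPM after MI in Vegfc-deficient mice. Foxm1 rose 8.01-fold in control hearts (log2 fold change 3.0, SE 0.51, edgeR adjusted p = 0.00120) and 6.45-fold in Vegfc-deficient hearts (log2 fold change 2.69, SE 0.43, edgeR adjusted p = 0.000497). Plk1, a kinase needed for spindle assembly and cytokinesis, had the largest change of these regulators in controls. It was at 0.981 and 0.906 CPM in naive control hearts, 1.27, 0.847 and 1.79 CPM in naive Vegfc-deficient hearts, 6.19, 8.99 and 11.9 CPM in MI control hearts and 4.64, 12.0 and 12.2 CPM in MI Vegfc-deficient hearts. The MI groups lay clear of the naive groups, and Plk1 rose 9.53-fold in control hearts (log2 fold change 3.25, SE 0.54, edgeR adjusted p = 0.00104) and 7.22-fold in Vegfc-deficient hearts (log2 fold change 2.85, SE 0.44, edgeR adjusted p = 0.000436). Cdc20, which activates the ubiquitin ligase that ends metaphase, had the smallest, and was at 5.35 and 3.71 CPM in the naive control libraries and 3.82, 3.87 and 4.88 CPM in the naive Vegfc-deficient ones, against 12.2, 15 and 21.2 CPM after MI in controls and 6.93, 14.6 and 16.8 CPM after MI in Vegfc-deficient mice. Cdc20 rose 3.56-fold in control hearts (log2 fold change 1.83, SE 0.40, edgeR adjusted p = 0.00388) and 3.04-fold in Vegfc-deficient hearts (log2 fold change 1.60, SE 0.34, edgeR adjusted p = 0.00277). Ube2c, the ubiquitin-conjugating enzyme of the same ligase, had log2 fold changes of 2.04 and 1.81 in the 2 genotypes, and its exons overlap Tnnc2 on the other strand.

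Mki67, Top2a and Ncapg act on the chromosomes themselves, and all 3 rose in both genotypes. Mki67 (ENSMUSG00000031004, chr7:135689784-135716361 on the minus strand), the Ki-67 antigen used to mark cycling cells, was at 15.7 and 15.9 CPM in naive control hearts, 16.8, 11.7 and 18.8 CPM in naive Vegfc-deficient hearts, 64.9, 77.7 and 101 CPM in MI control hearts and 45.3, 114 and 89.1 CPM in MI Vegfc-deficient hearts. The naive hearts were low but not at the floor, every MI heart was higher, and the lowest and the highest MI libraries, M35 and M900, were both Vegfc-deficient. Mki67 rose 5.14-fold in control hearts (log2 fold change 2.36, SE 0.38, edgeR adjusted p = 0.000869) and 5.24-fold in Vegfc-deficient hearts (log2 fold change 2.39, SE 0.32, edgeR adjusted p = 0.000207). Top2a (ENSMUSG00000020914, chr11:98992943-99024189 on the minus strand), the topoisomerase that untangles sister chromatids, was at 12.4 and 8.61 CPM in the naive control libraries and 11.4, 7.99 and 12.4 CPM in the naive Vegfc-deficient ones, against 45.1, 65.1 and 82.4 CPM after MI in controls and 31.2, 80.4 and 72.1 CPM after MI in Vegfc-deficient mice. Top2a rose 6.11-fold in control hearts (log2 fold change 2.61, SE 0.43, edgeR adjusted p = 0.00102) and 5.76-fold in Vegfc-deficient hearts (log2 fold change 2.53, SE 0.37, edgeR adjusted p = 0.000300). Ncapg, a condensin subunit, was near 1 CPM in naive hearts, at 0.981 and 0.725 CPM in naive control hearts, 1.08, 1.09 and 0.977 CPM in naive Vegfc-deficient hearts, 5.38, 8.62 and 9.25 CPM in MI control hearts and 2.88, 8.55 and 6.67 CPM in MI Vegfc-deficient hearts. Ncapg rose 9.03-fold in control hearts (log2 fold change 3.17, SE 0.51, edgeR adjusted p = 0.000880) and 5.76-fold in Vegfc-deficient hearts (log2 fold change 2.53, SE 0.42, edgeR adjusted p = 0.000684).

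The 10 genes of the centromere, kinetochore, spindle checkpoint and chromosomal passenger complex held Cenpa, which fell in both genotypes, and Cenpf, which rose in Vegfc-deficient hearts and did not pass in controls. Bub1, Bub1b, Ttk, Aurkb, Birc5, Cenpe, Ndc80 and Nuf2 rose in both genotypes. Aurkb, the kinase of the passenger complex, was at 3.30 and 1.09 CPM in naive control hearts, 3.24, 1.21 and 2.60 CPM in naive Vegfc-deficient hearts, 7.54, 11.9 and 15.2 CPM in MI control hearts and 6.11, 14.5 and 12.0 CPM in MI Vegfc-deficient hearts. M44 and M149 were the higher naive libraries and all MI libraries lay above them. Aurkb rose 5.26-fold in control hearts (log2 fold change 2.40, SE 0.58, edgeR adjusted p = 0.00662) and 4.56-fold in Vegfc-deficient hearts (log2 fold change 2.19, SE 0.49, edgeR adjusted p = 0.00367), and without M45 the control call was lost (log2 fold change 1.81, edgeR adjusted p = 0.0647). Birc5, survivin, a partner of Aurkb, was at 6.07 and 4.89 CPM in the naive control libraries and 5.88, 4.84 and 7.0 CPM in the naive Vegfc-deficient ones, against 21.3, 25.1 and 33.2 CPM after MI in controls and 10.8, 27.3 and 24.6 CPM after MI in Vegfc-deficient mice. Birc5 rose 4.84-fold in control hearts (log2 fold change 2.28, SE 0.39, edgeR adjusted p = 0.00123) and 3.52-fold in Vegfc-deficient hearts (log2 fold change 1.82, SE 0.33, edgeR adjusted p = 0.00112). Cenpe, a kinetochore motor, had the largest change in controls and was at 2.14 and 1.54 CPM in naive control hearts, 2.35, 1.57 and 1.71 CPM in naive Vegfc-deficient hearts, 9.15, 13.3 and 17.4 CPM in MI control hearts and 6.93, 21 and 16.3 CPM in MI Vegfc-deficient hearts. Cenpe rose 7.20-fold in control hearts (log2 fold change 2.85, SE 0.50, edgeR adjusted p = 0.00137) and 7.83-fold in Vegfc-deficient hearts (log2 fold change 2.97, SE 0.43, edgeR adjusted p = 0.000294). Ndc80, which joins the kinetochore to microtubules, was at 2.76 and 2.81 CPM in the naive control libraries and 3.24, 3.51 and 2.85 CPM in the naive Vegfc-deficient ones, against 9.64, 14.8 and 13.5 CPM after MI in controls and 5.88, 12.3 and 10.1 CPM after MI in Vegfc-deficient mice. Ndc80 rose 4.54-fold in control hearts (log2 fold change 2.18, SE 0.34, edgeR adjusted p = 0.000787) and 2.97-fold in Vegfc-deficient hearts (log2 fold change 1.57, SE 0.29, edgeR adjusted p = 0.00118).

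Cenpa, the histone H3 variant that marks centromeres, was the one member that fell. Cenpa (ENSMUSG00000029177, chr5:30666777-30674830 on the plus strand) was at 68.7 and 88.3 CPM in naive control hearts, 86.4, 95.1 and 100.01 CPM in naive Vegfc-deficient hearts, 38.6, 53.8 and 41.6 CPM in MI control hearts and 31.1, 30.7 and 41.2 CPM in MI Vegfc-deficient hearts. All MI libraries lay below all naive libraries. Cenpa fell to 0.570 of its naive level in control hearts (log2 fold change -0.81, SE 0.19, edgeR adjusted p = 0.00543) and to 0.366 in Vegfc-deficient hearts (log2 fold change -1.45, SE 0.17, edgeR adjusted p = 0.000115). The control call was lost without M45 (log2 fold change -0.62, edgeR adjusted p = 0.0716). In naive hearts Cenpa ranked next to Pcna per length, at 13.4 ± 2.36 (n = 2) and 16.0 ± 1.18 CPM per kilobase (n = 3) in control and Vegfc-deficient hearts (SD). Slc35f6, the gene that lies upstream of Cenpa on the same strand, was at 84.6 and 94.8 CPM in the naive control libraries and 99.8, 71.3 and 75.2 CPM in the naive Vegfc-deficient ones, against 52.1, 61.4 and 69.9 CPM after MI in controls and 74.2, 73.0 and 79.9 CPM after MI in Vegfc-deficient mice. Slc35f6 fell in controls (log2 fold change -0.55, SE 0.17, edgeR adjusted p = 0.0211) and did not pass in Vegfc-deficient hearts (log2 fold change -0.12, SE 0.15, edgeR adjusted p = 0.535). No protein-coding gene of the annotation overlaps the exons of Cenpa.

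Cenpf, a large kinetochore protein, also departed from the other genes of this role. Cenpf (ENSMUSG00000026605, chr1:189640606-189688086 on the minus strand) was at 23.4 and 15 CPM in naive control hearts, 7.26, 7.02 and 7.32 CPM in naive Vegfc-deficient hearts, 13.5, 16.4 and 19.4 CPM in MI control hearts and 9.52, 18.7 and 18 CPM in MI Vegfc-deficient hearts. Both naive controls lay above the 3 naive Vegfc-deficient libraries, which were within 1 CPM of each other, and all 6 MI libraries lay above those 3 and below M44. It rose 2.14-fold after MI in Vegfc-deficient hearts (log2 fold change 1.1, SE 0.28, edgeR adjusted p = 0.00635) and did not pass in controls (log2 fold change -0.22, SE 0.29, edgeR adjusted p = 0.557). The control value turned to 0.14 without M44 and to 0.018 when scaled without the 200 most abundant genes. The test of the difference between these responses gave a log2 value of 1.32 (SE 0.40, edgeR adjusted p = 0.543, unadjusted p = 0.00770 by edgeR).

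The 5 spindle genes Kif11, Kif2c, Tpx2, Nusap1 and Hmmr rose in both genotypes. Hmmr, a spindle-associated hyaluronan receptor, had the largest change of all members in controls, and was at 0.624 and 1.09 CPM in naive control hearts, 1.08, 1.33 and 2.93 CPM in naive Vegfc-deficient hearts, 9.90, 12.3 and 19.1 CPM in MI control hearts and 5.94, 19.8 and 13.1 CPM in MI Vegfc-deficient hearts. Naive M34 exceeded the other naive libraries, and every MI library exceeded M34. Hmmr rose 16.0-fold in control hearts (log2 fold change 4.0, SE 0.67, edgeR adjusted p = 0.00106) and 7.09-fold in Vegfc-deficient hearts (log2 fold change 2.83, SE 0.52, edgeR adjusted p = 0.00110). The naive controls held 7 and 12 counts of Hmmr, so the size of its change in controls is poorly fixed. The same holds for Mcm10, Ccnb1, Ncapg and Plk1, with 6 to 11 counts in naive controls. Tpx2, which activates Aurora A on the spindle, had the smallest change of this role in controls and was at 7.67 and 4.98 CPM in the naive control libraries and 7.45, 5.20 and 4.96 CPM in the naive Vegfc-deficient ones, against 21.4, 30.8 and 38.6 CPM after MI in controls and 16.6, 41.4 and 37.2 CPM after MI in Vegfc-deficient mice. Tpx2 rose 4.78-fold in control hearts (log2 fold change 2.26, SE 0.43, edgeR adjusted p = 0.00193) and 5.41-fold in Vegfc-deficient hearts (log2 fold change 2.44, SE 0.37, edgeR adjusted p = 0.000388). Nusap1, a microtubule bundler, was at 5.26 and 5.07 CPM in naive control hearts, 4.12, 4.96 and 8.38 CPM in naive Vegfc-deficient hearts, 23.5, 27.3 and 31.7 CPM in MI control hearts and 12.0, 24.8 and 22.6 CPM in MI Vegfc-deficient hearts. Nusap1 rose 5.32-fold in control hearts (log2 fold change 2.41, SE 0.37, edgeR adjusted p = 0.000759) and 3.38-fold in Vegfc-deficient hearts (log2 fold change 1.76, SE 0.31, edgeR adjusted p = 0.000997).

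Kif20a, Kif23, Prc1, Racgap1, Ect2 and Anln, which build the central spindle and the contractile ring, all rose in both genotypes. Prc1, a cross-linker of central spindle microtubules, had the largest change of all members in Vegfc-deficient hearts. Prc1 was at 2.68 and 1.99 CPM in naive control hearts, 1.86, 2.18 and 2.60 CPM in naive Vegfc-deficient hearts, 15.8, 14.4 and 27 CPM in MI control hearts and 13.6, 29.2 and 26.5 CPM in MI Vegfc-deficient hearts. The MI libraries lay far above the naive ones, and Prc1 rose 8.13-fold in control hearts (log2 fold change 3.02, SE 0.42, edgeR adjusted p = 0.000484) and 10.4-fold in Vegfc-deficient hearts (log2 fold change 3.37, SE 0.37, edgeR adjusted p = 7.60e-05). Its exons overlap those of Rccd1 on the opposite strand. Kif23, a central spindle motor, had the smallest change and was at 6.60 and 7.52 CPM in the naive control libraries and 7.35, 4.12 and 8.14 CPM in the naive Vegfc-deficient ones, against 13.9, 17.8 and 22.1 CPM after MI in controls and 11.5, 21.1 and 20.2 CPM after MI in Vegfc-deficient mice. Kif23 rose 2.54-fold in control hearts (log2 fold change 1.34, SE 0.35, edgeR adjusted p = 0.00923) and 2.67-fold in Vegfc-deficient hearts (log2 fold change 1.42, SE 0.30, edgeR adjusted p = 0.00281), with the control call lost without M44 or M45 (edgeR adjusted p = 0.0714 and 0.0501). Exons of 12 members overlap a protein-coding gene on the opposite strand, and those of Foxm1 overlap Gm44596 and Tex52 on the same strand. The library kit keeps strand, but whether counting used it was not given in the sources used here.

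Replication and mitosis genes were then compared within each library, with no test since the list was chosen with results known. The mean log2 CPM of the 15 replication genes exceeded that of the 34 mitosis genes by 1.28 and 1.41 in naive control hearts and by 1.40, 1.76 and 1.11 in naive Vegfc-deficient hearts. After MI the excess was 0.579, 0.633 and 0.261 in controls and 0.778, 0.301 and 0.430 in Vegfc-deficient hearts, so no MI library reached the lowest naive one. Mitosis genes had moved from 1.60 to 2.08 in naive hearts to 3.18 to 4.48 after MI, and replication genes from 3.14 to 3.36 to 3.96 to 4.75. The median log2 fold change was 2.45 for mitosis and 1.26 for replication genes in controls, and 2.34 and 1.26 in Vegfc-deficient hearts. The ranges overlapped, from -0.81 to 4.0 for mitosis genes and from 0.26 to 3.06 for replication genes in controls. CPM are not per length, so the excess within a library also depends on gene length. By genotype the excess was 1.34 ± 0.086 (SD, n = 2) against 1.42 ± 0.32 (n = 3) in naive hearts and 0.491 ± 0.20 against 0.503 ± 0.25 after MI (n = 3 each).

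**Figure D3:**
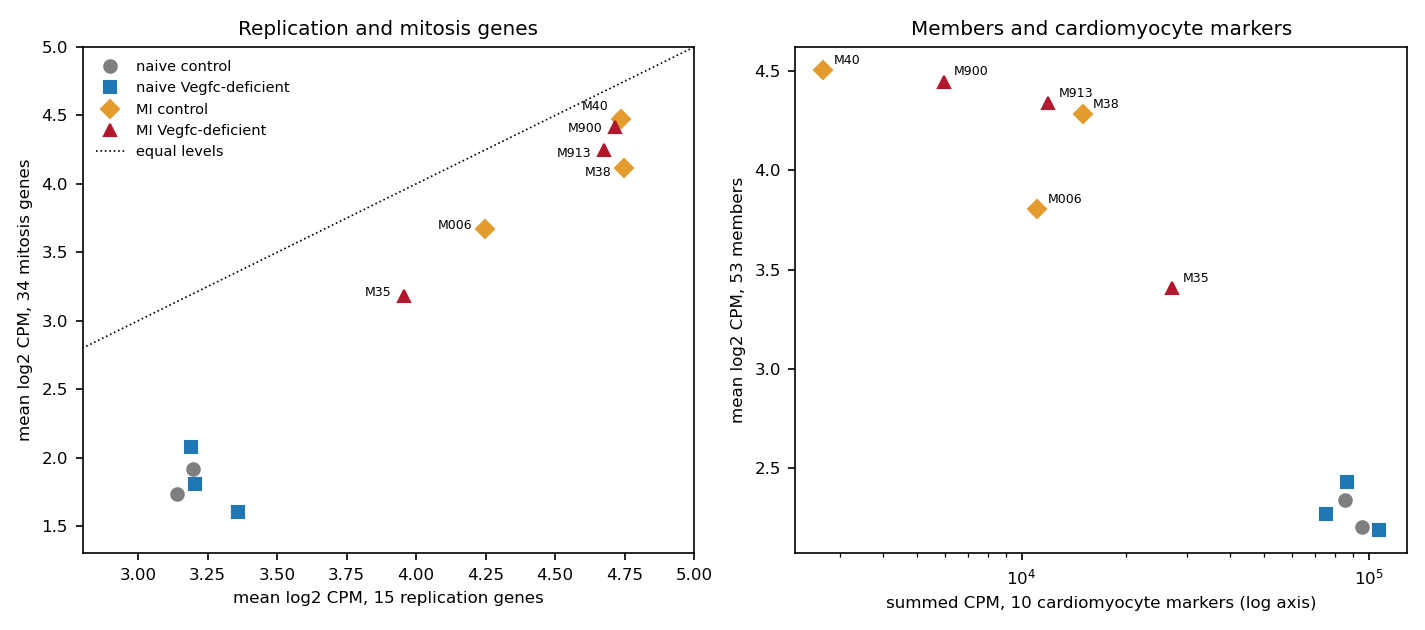
Left, mean log2 CPM of the 34 mitosis genes (vertical) against that of the 15 replication genes (horizontal) in each library, with a dotted line where both are equal; right, mean log2 CPM of all 53 members (vertical) against the summed CPM of 10 cardiomyocyte markers (horizontal, log axis). Each point is 1 mouse, MI libraries lie nearer the dotted line than naive ones (0.261 to 0.778 against 1.11 to 1.76), and M35 has the lowest member level and the highest cardiomyocyte sum of the MI libraries.

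The level of the whole set varied among the infarcted hearts. The mean log2 CPM over the 53 members was 3.81, 4.29 and 4.51 in MI controls M006, M38 and M40 and 3.41, 4.45 and 4.34 in MI Vegfc-deficient M35, M900 and M913, against 2.19 to 2.43 in naive hearts. M35 was the lowest of the 6 MI libraries for 45 members and for 25.3% of all genes tested. M006 was lowest for 6 members and for 13.4% of all genes tested. M40 was the highest for 28 members, M900 for 13, M38 for 10 and M913 for 2. Shares over all genes were not computed for the highest library. The summed cardiomyocyte markers ran the other way at the ends, with 27226 CPM in M35 and 2682 CPM in M40, and stood at 11074, 15018, 5965 and 11921 CPM in M006, M38, M900 and M913. Macrophage markers were lowest in M35 (1962 CPM), followed by M006 (2691 CPM), and at 3683 to 4777 CPM in the other MI libraries. Fibroblast markers were at 37465 CPM in M35, within the range of the other MI libraries, and endothelial markers at 1973 CPM within 891 to 3084 CPM. T cell and erythroid sums in M35 also lay within that range. Mural markers were lowest in M35 (1454 CPM, against 2003 to 3071 CPM), as were neutrophil markers (37.0 CPM, against 48.3 to 351 CPM). B cell markers were highest there (30.3 CPM, against 10.7 to 15.6 CPM). Of the mural genes Acta2, Tagln and Cspg4 were lowest in M35, and Myh11, Rgs5 and Pdgfrb were not. Sums weigh abundant genes most and are not shares of cells. Adgre1, Cd68, C1qa, C1qb, Fcgr1 and Mertk were lowest in M35 among MI libraries. Csf1r was not, and Mrc1 was highest there (160 CPM). The part of these marker levels in the members' levels was not tested.

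Among 42 other replication genes, 18 rose and 2 fell (Gmnn and Dut) in control hearts, and 17 rose and 9 fell in Vegfc-deficient hearts, with medians of 0.47 and 0.27. These counts, and those of the lists that follow, stand beside 26.3% of all genes tested that rose and 24.1% that fell in controls, and 30% and 27.7% in Vegfc-deficient hearts. Of the 43 other mitosis genes 35 rose and 1 fell in either genotype, Pttg1 in controls and Ncaph2 in Vegfc-deficient hearts, with medians of 2.02 and 1.89. Pole, the catalytic subunit of a replicative polymerase, was at 2.68 and 2.90 CPM in naive control hearts, 2.65, 2.66 and 2.77 CPM in naive Vegfc-deficient hearts, 7.21, 7.30 and 8.88 CPM in MI control hearts and 6.46, 8.18 and 7.54 CPM in MI Vegfc-deficient hearts. Pole rose 2.79-fold in control hearts (log2 fold change 1.48, SE 0.23, edgeR adjusted p = 0.000701) and 2.74-fold in Vegfc-deficient hearts (log2 fold change 1.46, SE 0.20, edgeR adjusted p = 0.000211). Clspn, claspin, a fork and checkpoint protein, was at the floor or just above in naive controls (4 and 3 counts), at 0.357 and 0.272 CPM in the naive control libraries and 0.981, 0.363 and 1.63 CPM in the naive Vegfc-deficient ones, against 5.11, 7.24 and 8.81 CPM after MI in controls and 3.82, 8.64 and 7.12 CPM after MI in Vegfc-deficient mice. Clspn rose in controls (log2 fold change 4.46, SE 0.65, edgeR adjusted p = 0.000572), where so few naive counts leave the size of the change poorly fixed, and 6.33-fold in Vegfc-deficient hearts (log2 fold change 2.66, SE 0.47, edgeR adjusted p = 0.000953). Gmnn, geminin, which holds back Cdt1, went the other way and was at 107 and 131 CPM in naive control hearts, 128, 183 and 134 CPM in naive Vegfc-deficient hearts, 28.4, 45.5 and 23.3 CPM in MI control hearts and 32.4, 22.3 and 29.2 CPM in MI Vegfc-deficient hearts. No MI library came near a naive one, and Gmnn fell to 0.272 of its naive level in control hearts (log2 fold change -1.88, SE 0.28, edgeR adjusted p = 0.000621) and to 0.189 in Vegfc-deficient hearts (log2 fold change -2.41, SE 0.27, edgeR adjusted p = 8.03e-05).

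Smc4, a condensin core subunit, was at 32.4 and 33.5 CPM in the naive control libraries and 38.3, 42.8 and 39.1 CPM in the naive Vegfc-deficient ones, against 95.7, 88.9 and 99.5 CPM after MI in controls and 85.9, 107 and 80.3 CPM after MI in Vegfc-deficient mice. Smc4 rose 2.87-fold in control hearts (log2 fold change 1.52, SE 0.15, edgeR adjusted p = 0.000151) and 2.28-fold in Vegfc-deficient hearts (log2 fold change 1.19, SE 0.13, edgeR adjusted p = 7.46e-05). Cep55, a scaffold of the last cut between daughter cells, was at 2.23 and 2.45 CPM in naive control hearts, 2.06, 1.57 and 1.87 CPM in naive Vegfc-deficient hearts, 7.27, 13.3 and 14.1 CPM in MI control hearts and 8.76, 12.4 and 10.7 CPM in MI Vegfc-deficient hearts. Cep55 rose 4.94-fold in control hearts (log2 fold change 2.31, SE 0.33, edgeR adjusted p = 0.000529) and 5.76-fold in Vegfc-deficient hearts (log2 fold change 2.52, SE 0.29, edgeR adjusted p = 9.95e-05). Knl1, a kinetochore scaffold, was at 0.446 and 0.725 CPM in the naive control libraries and 0.882, 1.33 and 1.3 CPM in the naive Vegfc-deficient ones, against 4.63, 8.79 and 8.62 CPM after MI in controls and 3.29, 8.18 and 6.13 CPM after MI in Vegfc-deficient mice. All 3 genes were higher in every MI library than in every naive library. Knl1 rose 12.5-fold in control hearts (log2 fold change 3.64, SE 0.53, edgeR adjusted p = 0.000578) and 5.0-fold in Vegfc-deficient hearts (log2 fold change 2.32, SE 0.42, edgeR adjusted p = 0.00103).

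Of the 7 inhibitors of cyclin-dependent kinases 4 rose in each genotype (26.3% and 30% of all genes), while 1 fell in controls and 2 in Vegfc-deficient hearts, near the shares over all genes (24.1% and 27.7%). Cdkn2b, an inhibitor of the cyclin D kinases, had the largest change and was at 1.07 and 1.72 CPM in naive control hearts, 1.76, 3.27 and 2.28 CPM in naive Vegfc-deficient hearts, 11, 13.4 and 13.5 CPM in MI control hearts and 6.70, 16.2 and 14.4 CPM in MI Vegfc-deficient hearts. Cdkn2b rose 9.02-fold in control hearts (log2 fold change 3.17, SE 0.45, edgeR adjusted p = 0.000495) and 5.15-fold in Vegfc-deficient hearts (log2 fold change 2.37, SE 0.36, edgeR adjusted p = 0.000397). Cdkn1b, which binds cyclin E kinases, was at 28.0 and 29.4 CPM in the naive control libraries and 25.7, 27.5 and 32.4 CPM in the naive Vegfc-deficient ones, against 60.0, 46.5 and 56.5 CPM after MI in controls and 62.2, 52.6 and 49.0 CPM after MI in Vegfc-deficient mice. Cdkn1b rose 1.89-fold in control hearts (log2 fold change 0.92, SE 0.16, edgeR adjusted p = 0.00145) and 1.91-fold in Vegfc-deficient hearts (log2 fold change 0.93, SE 0.14, edgeR adjusted p = 0.000419). Cdkn2a, whose locus is known as a senescence marker, was at 0.892 and 0.362 CPM in naive control hearts, 1.27, 0.605 and 1.46 CPM in naive Vegfc-deficient hearts, 3.01, 4.53 and 3.71 CPM in MI control hearts and 1.12, 5.41 and 4.85 CPM in MI Vegfc-deficient hearts. It rose 5.93-fold in control hearts (log2 fold change 2.57, SE 0.72, edgeR adjusted p = 0.0135) and 3.34-fold in Vegfc-deficient hearts (log2 fold change 1.74, SE 0.58, edgeR adjusted p = 0.0253), although M35 lay below naive M149 and M34. Its call was lost without M45 in controls (edgeR adjusted p = 0.112), and without M150, M900 or M913 in Vegfc-deficient hearts (0.0874, 0.0959 and 0.0833 by the same edgeR test).

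Cdkn1c, an imprinted inhibitor, was at 74.1 and 70.2 CPM in naive control hearts, 40.7, 54.2 and 56.7 CPM in naive Vegfc-deficient hearts, 33.3, 21.6 and 22.8 CPM in MI control hearts and 32.6, 16.4 and 21.5 CPM in MI Vegfc-deficient hearts. Cdkn1c fell to 0.358 of its naive level in control hearts (log2 fold change -1.48, SE 0.28, edgeR adjusted p = 0.00187) and to 0.464 in Vegfc-deficient hearts (log2 fold change -1.11, SE 0.26, edgeR adjusted p = 0.00421). Cdkn1a, the target of p53, was at 57.7 and 37.1 CPM in the naive control libraries and 31.1, 20.9 and 35.2 CPM in the naive Vegfc-deficient ones, against 50.3, 83.0 and 87.0 CPM after MI in controls and 52.0, 97.1 and 89.6 CPM after MI in Vegfc-deficient mice. It rose in Vegfc-deficient hearts (log2 fold change 1.45, SE 0.31, edgeR adjusted p = 0.00267) and had a value of 0.63 in controls, where M006 lay below M44 (SE 0.34, edgeR adjusted p = 0.147). The difference between these responses was 0.82 (SE 0.45, edgeR adjusted p = 0.638). Cdkn2c was at 21.9 and 26.8 CPM in naive control hearts, 28.2, 33.0 and 31.2 CPM in naive Vegfc-deficient hearts, 40.8, 34.9 and 43.2 CPM in MI control hearts and 32.3, 30.6 and 38.7 CPM in MI Vegfc-deficient hearts. It rose in controls (log2 fold change 0.70, SE 0.16, edgeR adjusted p = 0.00488), a call lost without M44 (edgeR adjusted p = 0.0612), and did not pass in Vegfc-deficient hearts (log2 fold change 0.14, SE 0.14, edgeR adjusted p = 0.422) except under scaling without the 200 most abundant genes (0.42, edgeR adjusted p = 0.0229), with a difference of -0.56 (SE 0.21, edgeR adjusted p = 0.558). Cdkn2d was at 30.9 and 30 CPM in the naive control libraries and 29.4, 34.4 and 37.4 CPM in the naive Vegfc-deficient ones, against 22.8, 30.3 and 31.0 CPM after MI in controls and 21.3, 23.5 and 27.9 CPM after MI in Vegfc-deficient mice. It fell in Vegfc-deficient hearts (log2 fold change -0.47, SE 0.16, edgeR adjusted p = 0.0247), a call lost without M150, M34, M35 or M900 and under scaling without the 200 most abundant genes (-0.19), and was at -0.12 on the log2 scale in controls (edgeR adjusted p = 0.591), which that scaling turned to 0.12.

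**Figure D4:**
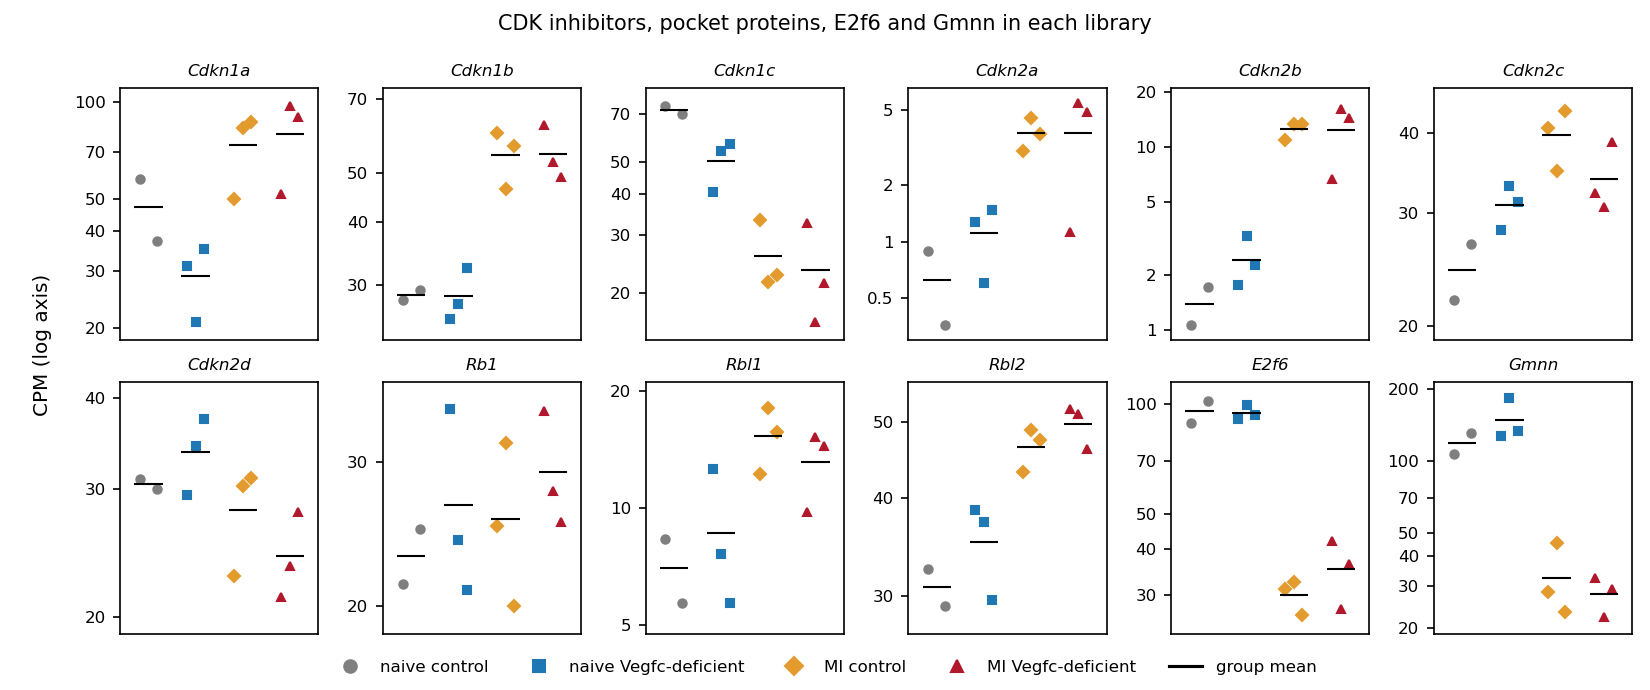
CPM on a log axis (vertical) of the 7 CDK inhibitors, the pocket protein genes Rb1, Rbl1 and Rbl2, E2f6 and Gmnn in each library, by group (horizontal), each point 1 mouse and each line the group mean. Cdkn1b, Cdkn2b and Rbl2 are higher in every MI library than in every naive library, and Cdkn1c, E2f6 and Gmnn are lower.

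Of 18 genes of the Rb, E2F and DREAM complexes, 8 rose and 3 fell in each genotype, the 3 being E2f6, Tfdp2 and Lin52, against 26.3% and 24.1% of all genes in controls and 30% and 27.7% in Vegfc-deficient hearts. Rb1, the retinoblastoma gene, was at 21.2 and 24.8 CPM in naive control hearts, 34.8, 24.1 and 20.9 CPM in naive Vegfc-deficient hearts, 25.0, 31.6 and 20 CPM in MI control hearts and 34.6, 27.6 and 25.3 CPM in MI Vegfc-deficient hearts. The groups overlapped, with log2 fold changes of 0.15 (SE 0.25, edgeR adjusted p = 0.639) and 0.13 (SE 0.22, edgeR adjusted p = 0.631). Rbl1, its relative that is itself made in cycling cells, was at 8.29 and 5.71 CPM in the naive control libraries and 12.6, 7.63 and 5.70 CPM in the naive Vegfc-deficient ones, against 12.2, 18 and 15.7 CPM after MI in controls and 9.76, 15.2 and 14.4 CPM after MI in Vegfc-deficient mice. Rbl1 rose in controls (log2 fold change 1.128, SE 0.35, edgeR adjusted p = 0.0215), a call lost without M45 or M38, and was at 0.61 in Vegfc-deficient hearts (SE 0.30, edgeR adjusted p = 0.107), which passed without M149 (0.99, edgeR adjusted p = 0.0155), and with all libraries by limma voom (0.97, adjusted p = 0.00948) and under scaling without the 200 most abundant genes (0.88, edgeR adjusted p = 0.0287). Rbl2, the pocket protein of resting cells, was at 32.5 and 29.1 CPM in naive control hearts, 38.6, 37.3 and 29.6 CPM in naive Vegfc-deficient hearts, 43.2, 49.0 and 47.5 CPM in MI control hearts and 52.1, 51.3 and 46.2 CPM in MI Vegfc-deficient hearts. Rbl2 rose 1.51-fold in control hearts (log2 fold change 0.60, SE 0.14, edgeR adjusted p = 0.00633) and 1.42-fold in Vegfc-deficient hearts (log2 fold change 0.50, SE 0.13, edgeR adjusted p = 0.00636), the control call being lost without M45 (edgeR adjusted p = 0.0670).

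E2f6, a repressor of the E2F family, was at 88.8 and 102 CPM in the naive control libraries and 90.9, 99.9 and 93.5 CPM in the naive Vegfc-deficient ones, against 31.1, 32.6 and 26.4 CPM after MI in controls and 42.1, 27.4 and 36.4 CPM after MI in Vegfc-deficient mice. E2f6 fell to 0.314 of its naive level in control hearts (log2 fold change -1.67, SE 0.17, edgeR adjusted p = 0.000181) and to 0.372 in Vegfc-deficient hearts (log2 fold change -1.43, SE 0.16, edgeR adjusted p = 8.96e-05). Tfdp2, a dimer partner of E2F, was at 67.2 and 72.6 CPM in naive control hearts, 65.1, 71.3 and 65.6 CPM in naive Vegfc-deficient hearts, 38.2, 31.1 and 33.8 CPM in MI control hearts and 45.1, 29.9 and 31.7 CPM in MI Vegfc-deficient hearts. Tfdp2 fell to 0.492 of its naive level in control hearts (log2 fold change -1.02, SE 0.17, edgeR adjusted p = 0.00117) and to 0.528 in Vegfc-deficient hearts (log2 fold change -0.92, SE 0.16, edgeR adjusted p = 0.000798). Lin9, a core subunit of MuvB, was at 4.28 and 3.62 CPM in the naive control libraries and 5.20, 3.99 and 5.21 CPM in the naive Vegfc-deficient ones, against 10, 10.2 and 12.2 CPM after MI in controls and 8.58, 11.4 and 10.9 CPM after MI in Vegfc-deficient mice. In all 3 genes naive and MI libraries did not overlap. Lin9 rose 2.73-fold in control hearts (log2 fold change 1.45, SE 0.23, edgeR adjusted p = 0.000803) and 2.14-fold in Vegfc-deficient hearts (log2 fold change 1.1, SE 0.20, edgeR adjusted p = 0.000965).

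Of 6 further G1 genes, 2 rose in controls and 3 in Vegfc-deficient hearts, near or above the shares of all genes (26.3% and 30%), and none fell. Cdk6, a partner of the D cyclins, was at 16.1 and 15.2 CPM in naive control hearts, 18.7, 14.5 and 15.3 CPM in naive Vegfc-deficient hearts, 44, 41.3 and 60.3 CPM in MI control hearts and 45.5, 62.8 and 57.6 CPM in MI Vegfc-deficient hearts. Cdk6 rose 3.10-fold in control hearts (log2 fold change 1.63, SE 0.21, edgeR adjusted p = 0.000362) and 3.42-fold in Vegfc-deficient hearts (log2 fold change 1.77, SE 0.18, edgeR adjusted p = 6.18e-05). Cdk2, the kinase of cyclins E and A, was at 21.3 and 18.5 CPM in the naive control libraries and 18.2, 12.5 and 17.0 CPM in the naive Vegfc-deficient ones, against 32.6, 22.6 and 31.3 CPM after MI in controls and 31.8, 33.7 and 29.5 CPM after MI in Vegfc-deficient mice. Cdk2 rose 1.45-fold in control hearts (log2 fold change 0.54, SE 0.20, edgeR adjusted p = 0.0471) and 1.99-fold in Vegfc-deficient hearts (log2 fold change 0.99, SE 0.18, edgeR adjusted p = 0.00109). Its control call was lost under DESeq2 or its size factors, without the filter on low counts, with only the compared groups in the fit and without any of M44, M45, M34, M006, M40, M35, M900 or M913 (log2 fold changes of 0.43 to 0.64 without 1 library).

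Between the genotypes no member passed edgeR's test. In infarcted hearts 0 of 53 members and 0% of all genes were called by edgeR's quasi-likelihood test or by limma voom, and DESeq2 called 0 members and 0.346% of the 14722 genes for which it gave an adjusted p. At an unadjusted p under 0.05 there was 1 member (Cenpa), against 7.94% of all genes. The MI groups did not overlap for 1 member (Tyms, lower in Vegfc-deficient hearts), against 12.1% of all genes. Log2 fold changes ran from -0.47 to 0.30, with 35 members below 0 and 18 above, and a median of -0.091 beside -0.007 over all genes tested. The median turned to 0.16 without M35 and was -0.27 without M006. Cenpa had the smallest p, with a log2 fold change of -0.38 (SE 0.17, edgeR adjusted p = 0.626). Tyms followed with -0.40 (SE 0.22, edgeR adjusted p = 0.658), then Nusap1 with -0.47 (SE 0.29), Ndc80 with -0.42 (SE 0.27) and Birc5 with -0.34 (SE 0.31). For Mki67 the value was 0.029 (SE 0.30, edgeR adjusted p = 0.989), for Top2a -0.068 (SE 0.34) and for Mcm2 -0.19 (SE 0.25). The errors of the members ran from 0.12 to 0.46 on the log2 scale. Differences of that order, and larger ones, could have been missed with 3 hearts a group.

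**Figure D5:**
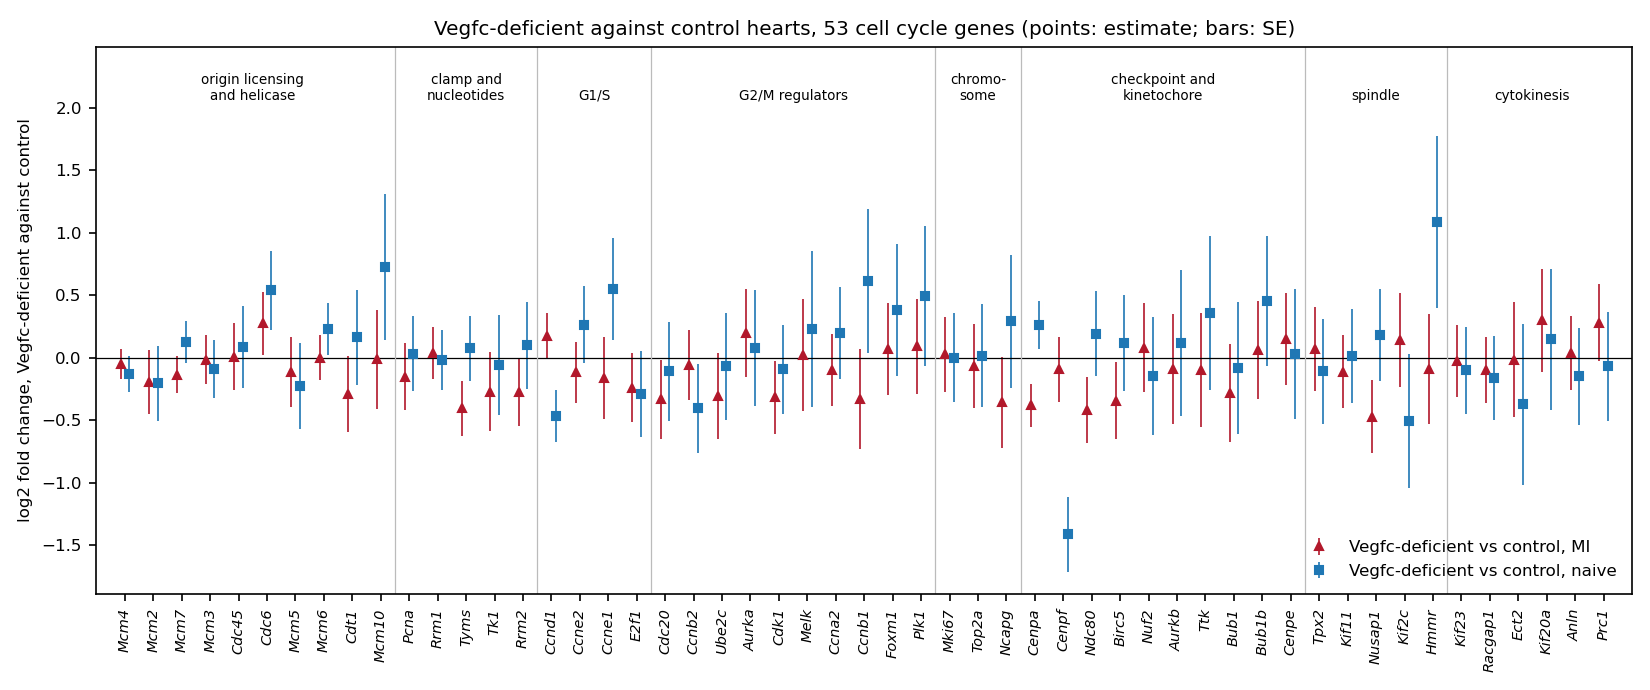
Log2 fold change of Vegfc-deficient against control hearts (vertical axis) for the 53 members by role (horizontal axis), as the edgeR estimate (point) with its standard error (bar), after MI (triangles) and in naive hearts (squares). After MI the points lie between -0.47 and 0.30, and in naive hearts Cenpf lies at -1.41 and Hmmr at 1.09, none with an edgeR adjusted p under 0.05.

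In naive hearts 0 members and 0% of all genes were called by edgeR, and limma voom called 0 members and 0.0406% of all genes. DESeq2 called 1 member, Cenpf, and 0.103% of the 13578 genes for which it gave an adjusted p. At an unadjusted p under 0.05 there were 2 members (Cenpf and Ccnd1), against 3.38% of all genes. The groups did not overlap for 10 members, 5 higher (Cdc6, Ccne1, Ccne2, Ccna2 and Ndc80) and 5 lower (Mcm2, Mcm5, Ccnd1, Ccnb2 and Cenpf) in Vegfc-deficient hearts, against 22.4% of all genes, where the control group has 2 libraries. Cenpf had a log2 fold change of -1.41 (SE 0.30, edgeR adjusted p = 1, unadjusted p = 0.000785) and -1.42 by DESeq2, whose adjusted p of 0.0307 was the lowest of a range up to 1 over the alternatives. Ccnd1 had -0.46 (SE 0.21, edgeR adjusted p = 1). The median over members was 0.032 beside 0.014 over all genes. Without M149, the naive Vegfc-deficient heart in which Lyz2 exceeded both naive controls, edgeR called 0 members. Over all genes it then called 4 higher and 13 lower in Vegfc-deficient hearts.

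No member passed a test of the difference between the genotypes' responses to MI by edgeR (0 of 53 members and 0% of all genes). Limma voom also called 0 members and 0% of all genes. DESeq2 called 0 members and 0.852% of the 6453 genes for which it gave an adjusted p. How many members were among those 6453 genes was not counted, and a member without an adjusted p could not have been called. The same limit applies to its calls between the genotypes in MI and in naive hearts. At an unadjusted p under 0.05 there were 3 members, Cenpf, Cenpa and Ccnd1, against 8.3% of all genes. The interaction of Cenpa was -0.64 (SE 0.26, edgeR adjusted p = 0.563), and that of Ccnd1 was 0.64 (SE 0.28, edgeR adjusted p = 0.594). For Mki67 it was 0.028 (SE 0.47). The median over the members was -0.21 beside -0.028 over all genes, and 0.09 without M35.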

How the data were processed

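RNA from the left ventricle of 11 mice, 1 library each, was sequenced from stranded mRNA libraries. Per the labels, the authors deposited raw counts per Ensembl gene. The submitters' processing notes name cutadapt 1.13, STAR, HTSeq 0.6.1p1, DESeq2 1.14.1 and the build mm10, with no role or order. Counting settings, which decide reads of overlapping genes, were not given in the sources used here.

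Counts were scaled by TMM in edgeR 4.0.16 (limma 3.58.1, R 4.3.3), filtered on low counts by group and fitted in 1 quasi-likelihood model of the 4 groups, with Benjamini-Hochberg adjustment over 14779 genes at 0.05. The sign and size of estimated changes were checked on simulated counts that held no difference between naive and MI controls. Rates of correct and false calls are not given here. Standard errors (SE) were derived from edgeR's test, as the absolute log2 fold change divided by the square root of its F statistic. Log2 CPM used a prior count of 2. Symbols and exon lengths came from GENCODE M21 on GRCm38 (24942 of 25006 identifiers matched) and promoters from RefSeq. Alternatives were DESeq2 1.42.0 and its size factors, limma voom, totals without the 200 most abundant genes, other filters and thresholds, only the compared groups, and leaving out each library.

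The members and lists were chosen with earlier results of these data known. Values in every library are given for 14 well-known members, the largest and smallest change of each role, members called against most others or in 1 genotype alone, members called between genotypes, the 5 smallest p between genotypes after MI, the CDK inhibitors and pocket proteins, and up to 3 genes with the smallest p of each other list. Slc35f6 was chosen after the values of Cenpa were seen.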

Additional observations from a re-analysis of the deposited data

How the results depend on the processing

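The members that rose after MI numbered 42 to 49 in controls and 48 to 50 in Vegfc-deficient hearts when 1 library was left out. When the call also required a log2 fold change of 1 or more in size, they numbered 46 and 45, and at an adjusted p under 0.01, 46 and 48. The number that fell in controls was 0 to 2 when 1 library was left out (0 without M45, 2 without M38), 2 by limma voom and 0 when a change of that size was required. In naive hearts DESeq2 called 1 member lower in Vegfc-deficient mice. The median log2 fold change of MI in Vegfc-deficient hearts was 1.752 to 2.36 when 1 library was left out, highest without M35, and that of the interaction -0.325 to 0.09, above 0 without M35. Taken as medians over the members, the excess of replication over mitosis genes was 1.956 in naive control, 1.834 in naive Vegfc-deficient and 0.731 in MI control hearts. Values without a call changed sign as follows. Scaling without the 200 most abundant genes gave 0.018 for Cenpf and 0.12 for Cdkn2d in controls. Leaving out 1 library gave -0.501 to 0.141 for Cenpf, -0.24 to 0.007 for Cdkn2d and -0.097 to 0.302 for Rb1 in controls, and -0.113 to 0.353 for Pcna and -0.016 to 0.375 for Rb1 in Vegfc-deficient hearts. Over all genes, calls in the control comparison came to 2217 higher and 2663 lower without M44 and to 2098 and 2476 without M45, against 3882 and 3568 with both. The causes of these shifts were not tested. Totals of 10824989 to 26782728 counts limit the low members, the fewest in a naive heart being 4 for Melk, 5 for Kif2c and 6 for Mcm10 and Ccnb1. No paired analysis was possible because the groups share no replicate numbers.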
